A study of Mus musculus with 9 samples.

Results

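Urokinase (Plau), tissue plasminogen activator (Plat), a receptor gene, inhibitor genes and plasminogen itself (Plg) make up a group of 7 genes, chosen by name from the 25652 genes of the authors' table. The other members are Plaur, which encodes the urokinase receptor, and the serpin genes Serpine2 (protease nexin 1), Serpinb2 (plasminogen activator inhibitor type 2) and Serpinf2 (alpha 2-antiplasmin). All 7 were found, and 5 had enough reads to be tested. Plg and Serpinf2 did not pass the filter on low counts. The samples were 9 RNA libraries from wild-type mice, each of which had been given 200 µL of a talc suspension in saline at 2.0 g/kg, injected through the diaphragm into the left side of the chest. Tissue came 30 min (day 0), 3 days or 9 days later, with 3 libraries per day. Replicate numbers are 1 to 3 for day 0, and 1, 3 and 4 for the later days. Day 0 tissue had therefore also received talc, and no untreated or saline mice were analysed here. The labels describe the tissue both as adhesion between chest wall and lung and as left lung tissue joined to the chest. They do not say that the libraries of a day came from separate mice. The p-values therefore set differences between days only against the spread of these libraries. That spread may be technical, and it may not be the spread between mice.

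Plasmin, the protease that dissolves fibrin, is made from the inactive plasminogen by either of the activators. Tissue plasminogen activator works mainly on fibrin, and urokinase mainly at the cell surface, where its receptor holds it. Serpins block the system at both steps: Serpinb2 and Serpine2 are among those that inhibit the activators, and alpha 2-antiplasmin inhibits plasmin. Plasminogen and alpha 2-antiplasmin in blood come mostly from the liver. Fibrin that is not cleared from an injured pleura or peritoneum is a known scaffold for adhesions, which is why the balance of activators and inhibitors is of interest here.

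Promoter sequences are shown for the members Plaur and Serpinb2, which rose at day 3, and for Serpine2, which did not pass. They are the 250 bases before the annotated start in RefSeq's GRCm38.p6, 5′ to 3′ on the gene's strand, with motif matches in capitals. RefSeq's promoter table held entries for Plaur, Serpine2, Serpinb2 and Serpinf2 but not for Plau, Plat or Plg. Plaur lies on the plus strand at chr7:24462233-24462482, Serpinb2 on the plus strand at chr1:107511173-107511422, and Serpine2 on the minus strand at chr1:79858666-79858915.
Plaur: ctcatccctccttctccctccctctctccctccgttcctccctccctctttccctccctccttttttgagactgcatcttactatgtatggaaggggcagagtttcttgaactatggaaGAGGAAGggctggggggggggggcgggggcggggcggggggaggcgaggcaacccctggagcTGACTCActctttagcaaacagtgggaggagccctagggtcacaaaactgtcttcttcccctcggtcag
Serpinb2: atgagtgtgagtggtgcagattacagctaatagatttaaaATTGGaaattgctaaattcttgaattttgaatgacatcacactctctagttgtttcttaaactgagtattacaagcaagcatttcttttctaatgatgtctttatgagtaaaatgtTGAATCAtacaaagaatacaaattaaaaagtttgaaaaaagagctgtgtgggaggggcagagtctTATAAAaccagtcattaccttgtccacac
Serpine2: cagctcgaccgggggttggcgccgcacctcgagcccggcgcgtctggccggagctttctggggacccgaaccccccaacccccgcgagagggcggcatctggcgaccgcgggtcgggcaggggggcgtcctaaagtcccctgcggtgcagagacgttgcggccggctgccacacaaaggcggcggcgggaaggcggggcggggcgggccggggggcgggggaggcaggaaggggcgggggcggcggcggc
Both strands were searched for the AP-1 element TGANTCA, the cyclic AMP response element TGACGTCA, the TATA box TATAAA, the CCAAT box, the ETS-type core GAGGAAG and the E box CACGTG, and no matches overlapped. The Plaur window held an AP-1 match, TGACTCA, that began 69 bases before the start, and GAGGAAG at 131 bases. The Serpinb2 window held the AP-1 form TGAATCA at 94 bases, TATAAA at 29 bases and a CCAAT box on the reverse strand at 210 bases. AP-1 matches stood in 6.75% of the 32851 windows of that promoter table, TATAAA in 12.4%, the CCAAT box in 33.8%, GAGGAAG in 10.6%, CACGTG in 6.02% and TGACGTCA in 1.55%. None of the 6 motifs was found in the Serpine2 or the Serpinf2 window. The base composition differed as well, with 32.4% G and C before Serpinb2, 59.6% before Plaur and 78.8% before Serpine2. A second start of Serpinb2 in RefSeq lies downstream, and its window holds the same TGAATCA and TATAAA.

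Library totals lay between 12769059 and 18701063 counts. Values are CPM, reads per 1000000 counted reads after TMM scaling of library size, means carry the SD over 3 libraries, and intervals and floors cover counting error only. The make-up of the tissue varied between libraries. Summed over 10 alveolar type 2 marker genes, levels were 4965 to 5439 CPM at day 0, but 221, 5897 and 152 CPM in day 3 replicates 1, 3 and 4, and 669 to 2788 CPM at day 9. Summed over 12 skeletal muscle genes they were 55930 to 131200 CPM in the 9 libraries, so both lung and chest wall transcripts were present. Day 3 replicate 3 therefore stands apart in lung transcripts, and values without it are given for some results. In bulk tissue, fewer cells of a type and less RNA per cell cannot be told apart.

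On the activator side, Plau, which encodes urokinase and lies on chromosome 14, was higher than at day 0 on both later days, as was its receptor gene Plaur on chromosome 7. Plat, on chromosome 8, was higher at day 9. The day 0 libraries held Plau at 11.0, 10.3 and 13.7 CPM, those of day 3 at 43.3, 20.2 and 41.5 CPM, and those of day 9 at 82.2, 46.2 and 55.0 CPM. Here and later, values follow the replicate numbers. No day 3 or day 9 library was as low as any day 0 library, and days 3 and 9 were apart only by the gap from 43.3 to 46.2 CPM. Plau was 3.00-fold higher at day 3 (log2 fold change 1.58 ± 0.32, standard error, edgeR adjusted p = 0.0143) and 5.23-fold higher at day 9 (2.39 ± 0.33, edgeR adjusted p = 0.00149). The difference between days 9 and 3, 0.80 ± 0.31 on the log2 scale, did not pass (edgeR adjusted p = 0.139). The lowest day 3 value was that of replicate 3, and without it the day 3 log2 fold change of Plau was 1.79. The day 3 call ended without day 0 replicate 1 (edgeR adjusted p = 0.065) or replicate 2 (0.0639), within 0.000107 to 0.152 over all alternatives, while the day 9 call passed in all 15 alternatives run.

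Plaur, the receptor that holds urokinase on the cell surface, had levels of 21.9, 18.3 and 24.9 CPM in the day 0 libraries, 54.3, 72.9 and 45.7 CPM in those of day 3, and 53.1, 52.4 and 59.6 CPM in those of day 9. All later libraries were above all day 0 libraries, and days 3 and 9 overlapped. Its rise was 2.65-fold at day 3 (log2 fold change 1.41 ± 0.19, edgeR adjusted p = 0.00232) and 2.53-fold at day 9 (1.34 ± 0.19, edgeR adjusted p = 0.00155). Between days 9 and 3 the estimate was -0.07 ± 0.18 (edgeR adjusted p = 0.86), and leaving out day 3 replicate 3 or day 9 replicate 1 made it positive. The 3 libraries of day 9 lay closer together (SD 4.01 CPM) than those of day 3 (SD 13.9 CPM). The highest day 3 value was that of replicate 3, and without it the day 3 log2 fold change of Plaur was 1.135 (edgeR adjusted p = 0.00131).

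Plat, the activator made chiefly by endothelial and mesothelial cells, showed 27.6, 29.5 and 37.8 CPM in the day 0 libraries against 37.4, 39.8 and 24.7 CPM in those of day 3, and the days overlapped. At day 9 it reached 63.5, 86.1 and 78.7 CPM, above each earlier library. The day 3 estimate was 0.10 ± 0.21 on the log2 scale (edgeR adjusted p = 0.743), and it was -0.09 without day 3 replicate 3. At day 9 Plat was 2.41-fold above day 0 (1.27 ± 0.21, edgeR adjusted p = 0.00371) and 2.24-fold above day 3 (1.16 ± 0.21, edgeR adjusted p = 0.016). The call against day 3 ended without day 9 replicate 4 (edgeR adjusted p = 0.0538) and in a fit of the 6 libraries of those days (0.0571), within 8.31e-06 to 0.0611 over all alternatives.

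**Figure D1:**
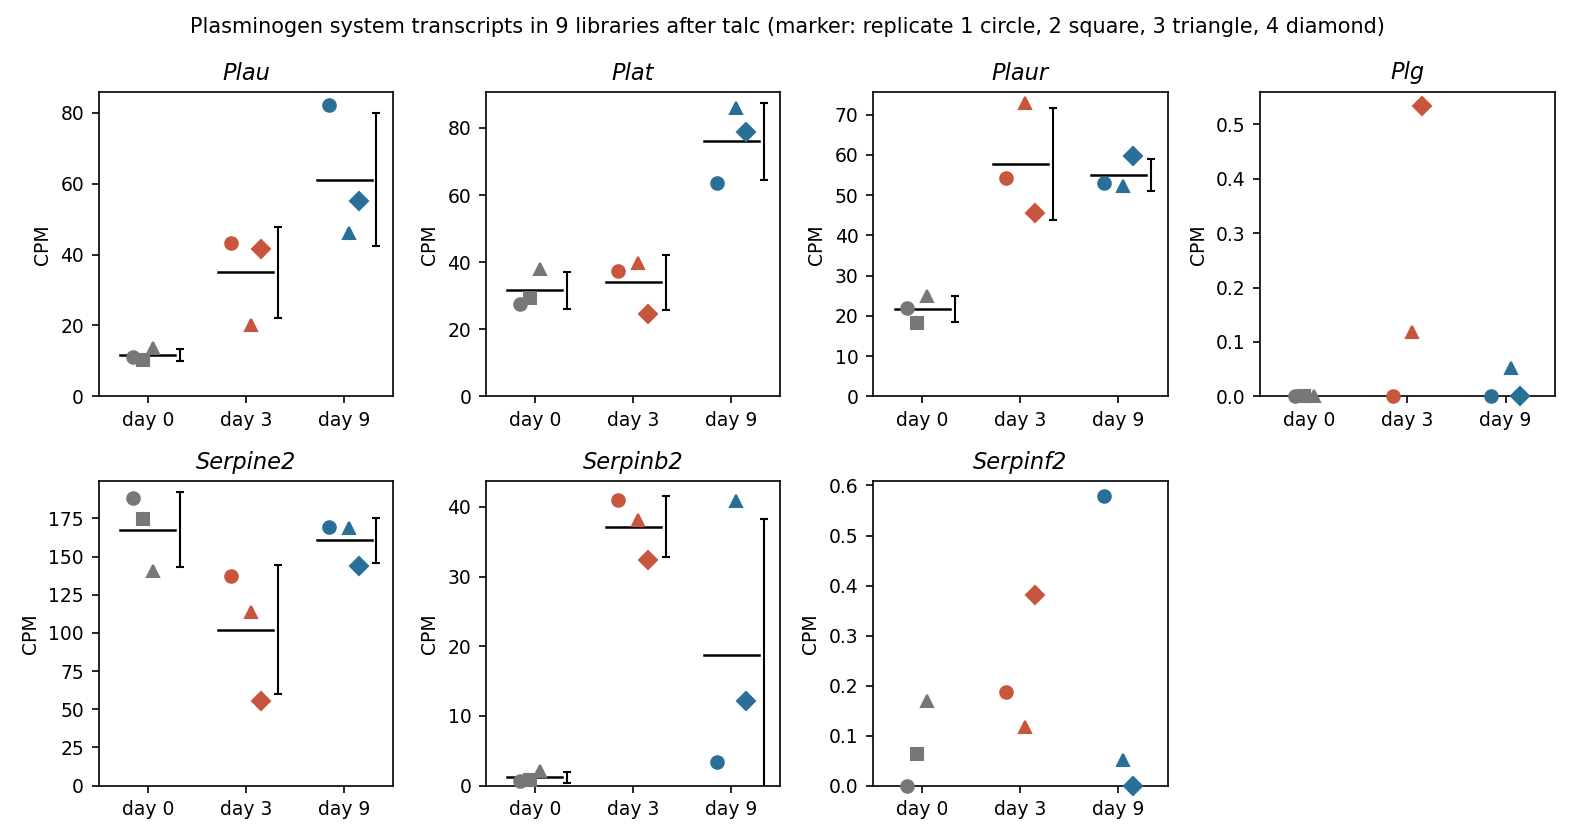
CPM (linear axes from 0) of the 7 members in each library, by day after talc; lines are means and bars the SD over 3 libraries, drawn only for genes that passed the filter. The bar of Serpinb2 at day 9 is cut at 0. Plau and Plaur are above every day 0 library in all day 3 and day 9 libraries, Plat in all day 9 libraries, and Serpinb2 is far above day 0 in all 3 libraries of day 3 but with a wide spread, 3.33 to 40.8 CPM, at day 9.

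Among the inhibitors, Serpinb2, on chromosome 1, had the largest fold change of the tested members against day 0, on both later days. It is a serpin that activated macrophages make in quantity and keep mostly inside the cell. It had few reads at day 0, with 11, 12 and 38 reads (0.644, 0.749 and 2.14 CPM), and rose to 41.0, 38.1 and 32.3 CPM at day 3. The day 3 libraries had an SD of 4.41 CPM and were far above all day 0 libraries. The rise was 31.1-fold (log2 fold change 4.96 ± 0.90, edgeR adjusted p = 0.00925). At day 9 it stood at 3.33, 40.8 and 12.1 CPM, so replicate 1 was near day 0 and replicate 3 at the day 3 level. The day 9 difference from day 0 was 15.8-fold (3.98 ± 0.87, edgeR adjusted p = 0.0138), and that from day 3 was -0.98 ± 0.73 on the log2 scale (edgeR adjusted p = 0.434). The day 3 call ended with limma-voom (adjusted p = 0.0554) and on leaving out day 0 replicate 1 (0.0512), in a range of 2.11e-09 to 0.0727 for all alternatives. The day 9 call ended with limma-voom (adjusted p = 0.134) or without day 0 replicate 1 (0.0636) or 2 (0.0615), within 1.87e-06 to 0.134. Without day 0 replicate 3 the log2 fold change of Serpinb2 was 5.72 at day 3 and 4.75 at day 9, and without day 9 replicate 3 it was 2.69 at day 9. In the authors' table Serpinb10, a gene on the same strand, overlaps Serpinb2. It had 215 reads over all libraries against 2800 for Serpinb2, and reads of the overlap may have been counted for either.

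Serpine2, also on chromosome 1, an inhibitor of thrombin, urokinase and tissue plasminogen activator that binds to the cell surface and matrix, had the highest level per exon length of the members on every day. Its levels were 188, 175 and 140 CPM in the day 0 libraries, 137, 114 and 55.2 CPM in those of day 3, and 170, 169 and 144 CPM in those of day 9. Every day 3 library was below every day 0 and day 9 library, by as little as 137 against 140 CPM. The differences did not pass in the edgeR fit: -0.71 ± 0.29 on the log2 scale at day 3 (edgeR adjusted p = 0.127), -0.06 ± 0.29 at day 9 (0.896), and 0.65 ± 0.29 between days 9 and 3 (0.193). DESeq2 called the day 3 decrease (-0.77, DESeq2 adjusted p = 0.0463), within 0.0463 to 0.311 over all alternatives.

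Plg, on chromosome 17, and Serpinf2, on chromosome 11, were barely detected. Plg had 0 reads in each day 0 library, which allows up to 0.0573 CPM over the 52354890 reads of that day, then 0, 2 and 7 reads at day 3 and 0, 1 and 0 reads at day 9. Serpinf2 had 0, 1 and 3 reads at day 0, 3, 2 and 5 reads at day 3 and 8, 1 and 0 reads at day 9. Neither was tested in the edgeR fit. The authors' deposited table gives FDR-adjusted p-values of 0.247 for Plg and 0.54 for Serpinf2 at day 3 against day 0. In the authors' table Plg overlaps Slc22a3, a transporter gene on the opposite strand, which had 650 reads against 10 for Plg. No library strand is stated, so reads of these genes cannot be told apart where they overlap. Day 3 replicate 4, with most of the Plg reads, also had 70 reads of the liver gene Alb and 27, 28 and 26 reads of the fibrinogen chains Fga, Fgb and Fgg. Alb had 66 reads in day 0 replicate 3 and 63 in day 9 replicate 3, with 0 and 1 reads of Plg. Summed over 12 hepatocyte genes, levels were 53.9 to 258 CPM at day 0, 28.9 to 113 CPM at day 3 and 31.0 to 77.1 CPM at day 9, and up to 5 of the 12 were at 0 in a library. The part of liver transcripts in these few reads was not tested.

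Counted together, 3 of the 5 tested members were higher at day 3 than at day 0 and 0 lower, where 12.9% of all 14794 tested genes were higher and 3.29% lower. Without day 0 replicate 1, 1 member and 691 of all genes were higher at day 3, in place of 3 and 1904, and without day 0 replicate 2, 2 members and 794 genes. Without day 0 replicate 3 the 3 members stood beside 915 higher genes, and without day 3 replicate 3 beside 2559 higher and 2612 lower genes, in place of 486 lower. At day 9, 4 of 5 were higher and 0 lower, where 15.2% of all tested genes were higher and 5.54% lower. Between days 9 and 3, 1 of 5 was higher, which was Plat, and 0 lower, where 5.19% of tested genes were higher and 3.66% lower. At an unadjusted p under 0.05, edgeR had 1 member lower at day 3, Serpine2, and 0 in the other comparisons. At that threshold 3, 4 and 2 members were higher in the 3 comparisons, and the share of all genes was not computed. DESeq2 called 1, 0 and 0 members lower, beside 1226, 1567 and 1037 of all genes. For limma-voom it was 0 in each, beside 645, 892 and 512 of all genes. The median log2 fold change of the 5 members was 1.41 at day 3 and 1.34 at day 9, beside 0.05 and 0.01 for all tested genes. An F test for any difference between days called Plau, Plat, Plaur and Serpinb2, where 25.7% of all tested genes were called, and gave an edgeR adjusted p = 0.158 for Serpine2. The authors' deposited table calls Plau, Plaur and Serpinb2 higher at day 3 at an FDR under 0.05, where it calls 7.13% of its genes higher. It adds Plat at day 9 (9.21%) and calls Plat alone between days 9 and 3 (3.72%). The comparisons of days 3 and 9 with day 0 share the same 3 day 0 libraries.

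**Figure D2:**
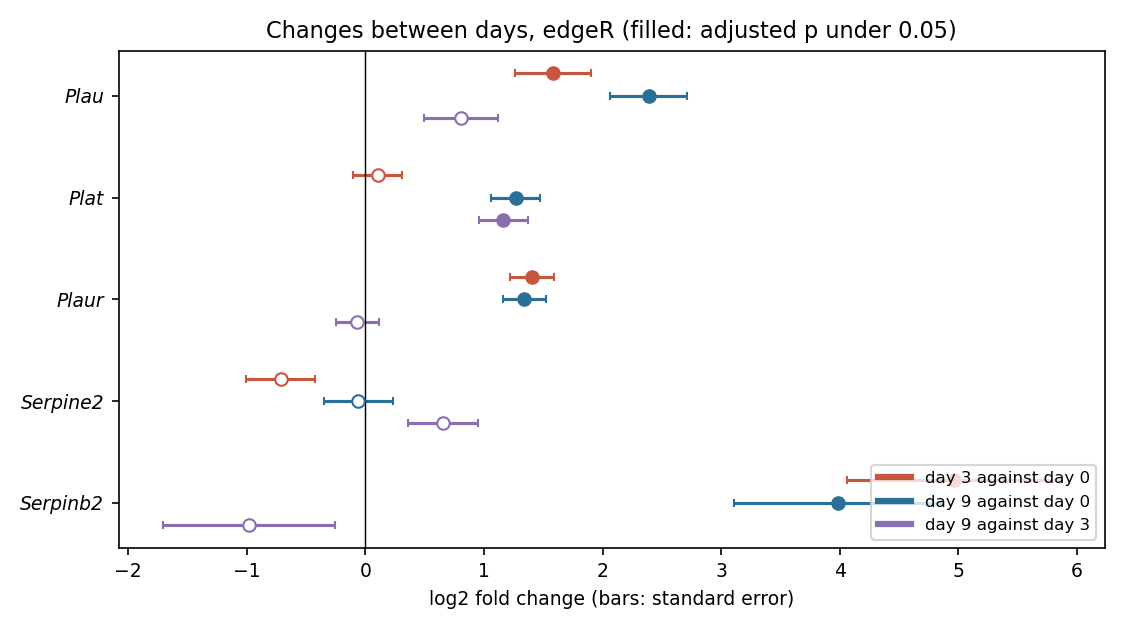
Log2 fold changes and their standard errors (x axis) for the 5 tested members (rows) in the 3 comparisons between days; filled points passed an adjusted p of 0.05. Plau, Plaur and Serpinb2 are filled against day 0 on both later days, Plat against day 0 at day 9 and against day 3, and Serpine2 in none.

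The balance of activator and inhibitor transcripts was read as a ratio of reads within each library, which does not depend on library scaling. These ratios describe RNA, not protease activity, and carry no test. Reads of Plau and Plat together against Serpine2 and Serpinb2 together gave log2 ratios of -2.29, -2.14 and -1.47 in the day 0 libraries. The ratios were -1.14, -1.34 and -0.40 in those of day 3 and -0.25, -0.66 and -0.22 in those of day 9. The ratio was thus lowest at day 0 in all 3 libraries, and days 3 and 9 overlapped. In linear terms the geometric means were 0.256, 0.513 and 0.770, and 0.229, 0.457 and 0.692 with reads per kilobase of exon. That scaling was added after seeing the data. The ratio covers these 4 genes alone, and other inhibitors of the activators are not counted in it.

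Single pairs of genes showed where the ratios moved. Plau against Serpine2 went from a log2 ratio of -3.85 ± 0.42 (SD, n = 3) at day 0 to -1.52 ± 1.05 at day 3 and -1.43 ± 0.41 at day 9. Plau against Serpinb2 went the other way, from 3.52 ± 0.75 to -0.16 ± 0.67 at day 3, and then spread over 4.63, 0.18 and 2.19 at day 9. Plau against Plat went from -1.44 ± 0.10 to -0.01 ± 0.89 at day 3, where replicate 3, at -0.98, was the lowest, and stood at -0.35 ± 0.65 at day 9. Plaur against Plau was 0.90 ± 0.09, 0.77 ± 0.94 and -0.11 ± 0.45 on days 0, 3 and 9. Day 3 replicate 3 was highest in that ratio, at 1.85, and without it the day 3 mean was 0.232. Serpinb2 against Serpine2 was -7.36 ± 1.16 at day 0 and -1.37 ± 0.52 at day 3, and spread over -5.67, -2.05 and -3.57 at day 9. Serpinb2 had fewer reads than Serpine2 in all 9 libraries.

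**Figure D3:**
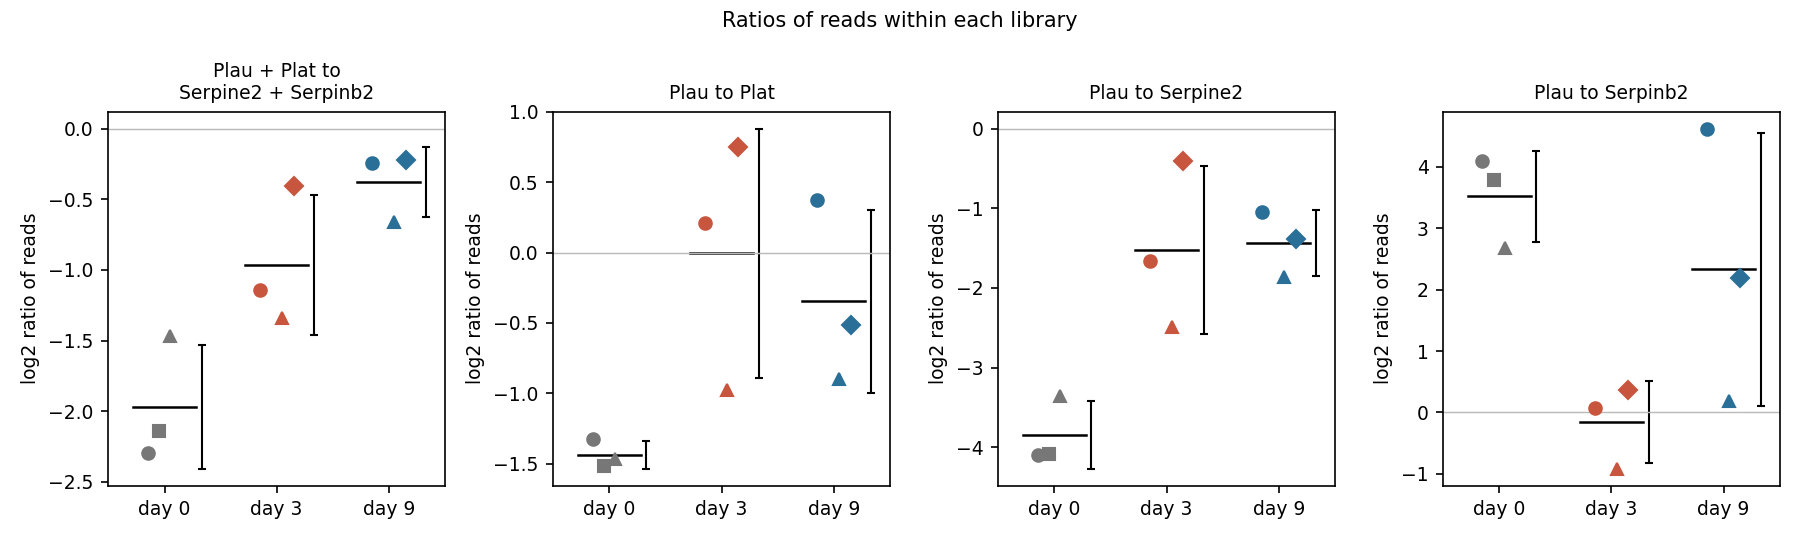
Log2 ratios of reads within each library (y axis) by day for 4 ratios; lines are means and bars the SD over 3 libraries. In the first panel all day 3 and day 9 libraries are above day 0, where the highest is at -1.47, and in the last Plau to Serpinb2 is between -0.92 and 0.36 at day 3 and spread from 0.18 to 4.63 at day 9.

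Per kilobase of exon, the order of the members was led by Serpine2 on every day, at 75.9 ± 11.2, 46.2 ± 19.1 and 72.7 ± 6.60 CPM per kilobase on days 0, 3 and 9 (SD, n = 3). Plaur followed, at 14.4 ± 2.21, 38.3 ± 9.23 and 36.5 ± 2.66. At day 0, Plat (12.5 ± 2.16) did not differ from Plaur beyond their spread, Plau was lower (4.98 ± 0.76), and Serpinb2 was at 0.572 ± 0.41. At day 3, Serpinb2 (18.1 ± 2.14), Plau (14.95 ± 5.49) and Plat (13.5 ± 3.23) lay within their spread of each other. At day 9, Plat (30.1 ± 4.55) and Plau (26.1 ± 8.02) did not differ beyond their spread and Serpinb2 was at 9.10 ± 9.52. Plg and Serpinf2 were below 0.3 CPM per kilobase in every library. Exon lengths were taken from GENCODE M21, which may not be the annotation used by the authors, and whether reads were counted along whole transcripts is not stated. Without division by length, mean CPM still put Serpine2 first on every day, but Plaur was below Plat at day 0 (21.7 against 31.6 CPM) and below Plat (76.1 CPM) and Plau (61.1 CPM) at day 9, where it was at 55.0 CPM.

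Of 28 further genes of the plasminogen system, 19 were tested, and 8 rose and 0 fell at day 3, where 12.9% of all tested genes were higher. At day 9, 11 rose and 0 fell, where the share was 15.2%. With all 9 libraries, none of the 19 was lower on either day at an unadjusted p under 0.05 in edgeR or by DESeq2 or limma-voom. A fit of the 6 libraries of days 0 and 9 called 2 of the 19 lower at day 9. Without day 3 replicate 3, edgeR called 1 lower at day 3 and 1 lower at day 9, and without day 3 replicate 4 it called 1 lower at day 9. The median log2 fold change of the 19 was 0.73 at day 3 and 0.88 at day 9, beside 0.05 and 0.01 for all tested genes. Several encode proteins that bind plasminogen or its activators at the cell surface. Anxa2 and S100a10, whose products form a complex that binds plasminogen and its tissue activator, were 1.90-fold and 1.84-fold higher at day 3 and 2.32-fold and 2.34-fold at day 9. Eno1, a glycolytic enzyme that also binds plasminogen at the surface, was 2.79-fold and 2.42-fold higher. Itgam and Itgb2, the chains of an integrin that pairs with the urokinase receptor on myeloid cells, were 4.10-fold and 2.83-fold higher at day 3 and 3.99-fold and 6.21-fold at day 9, and Itgb2 also rose between days 9 and 3 (2.20-fold).

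The genes of some receptors that take up their ligands were also higher at day 9. Lrp1, which takes up complexes of activators with their inhibitors, was 2.43-fold higher at day 9 (edgeR adjusted p = 0.00258), after 1.49-fold at day 3 (edgeR adjusted p = 0.0775), and its change between days 9 and 3 did not pass (edgeR adjusted p = 0.0584). Mrc2, a collagen receptor that associates with the urokinase receptor, was 1.54-fold higher than at day 0. Igf2r, which binds both the urokinase receptor and plasminogen, was 1.84-fold higher, after 1.66-fold at day 3 (edgeR adjusted p = 0.0685), and the difference between days 9 and 3 did not pass (1.11-fold, edgeR adjusted p = 0.743). F13a1, the transglutaminase chain that crosslinks fibrin and ties alpha 2-antiplasmin to it, rose 3.68-fold at day 3 and 2.34-fold at day 9. Serpinb8, a serpin inside cells, rose 2.55-fold and 3.42-fold, Kng2, a kininogen gene, 3.21-fold at day 3, and Serping1, the C1 inhibitor, 1.53-fold at day 9. The calls of Kng2 at day 3 and of Serping1, Mrc2 and Igf2r at day 9 each ended when any 1 of the day 0 libraries was left out, and over all alternatives their adjusted p reached 0.151, 0.156, 0.135 and 0.18. Between days 9 and 3, Itgb2 and Mrc2 rose and 0 of the 19 fell in edgeR, DESeq2 or limma-voom, with 1 lower at an unadjusted p under 0.05 in edgeR. Both of these calls ended in the fit of the 6 libraries (edgeR adjusted p = 0.0678 for Itgb2 and 0.0702 for Mrc2), and that of Mrc2 also without day 9 replicate 3 (0.0614) or 4 (0.0654). Over all alternatives they ranged from 8.22e-07 to 0.0698 for Itgb2 and from 4.4e-05 to 0.0812 for Mrc2. Reads of Eno1, Anxa2 and S100a10 may be shared with processed copies of these genes.

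**Figure D4:**
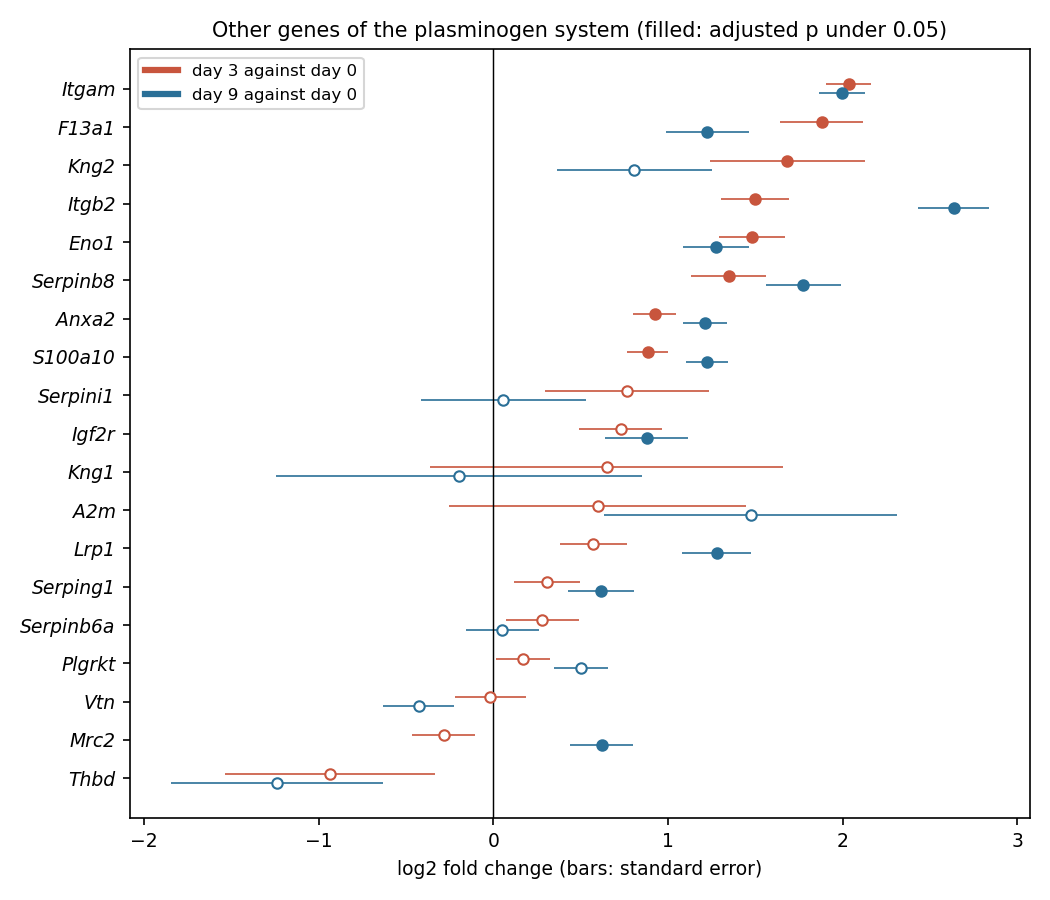
Log2 fold changes, with bars for the standard error (x axis), of the 19 tested other genes of the plasminogen system (rows), at days 3 and 9 against day 0; filled points passed an adjusted p of 0.05. All filled points are to the right of 0, and 7 genes are filled on both days.

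Few reads were found for the 9 listed genes that did not pass the filter. Among them, F12, which starts the contact pathway, had 0 to 4 reads per library, Klkb1, plasma prekallikrein, 2 to 7, and Hrg and Cpb2, an adaptor of plasminogen and the inhibitor that trims its binding sites from fibrin, 0 to 2 and 0 to 3. The fibrinogen chains Fga, Fgb and Fgg had at most 11 reads in any library other than day 3 replicate 4.

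Beside these results, markers of several cell types differed between days as well. Of 12 macrophage genes 10 rose at day 3 and 11 at day 9, and their summed level was 1487 to 1644, 2955 to 3905 and 4544 to 5658 CPM on days 0, 3 and 9. Itgam stands in that list as well. Of 12 fibroblast genes 2 rose and 2 fell at day 3, and 9 rose at day 9, with summed levels of 7673 to 11400, 7452 to 17500 and 29630 to 32490 CPM. Of 12 endothelial genes edgeR called 1 lower at day 3 and 5 at day 9, DESeq2 5 and 8, and limma-voom 2 and 6, with 7 and 8 lower at an unadjusted p under 0.05 in edgeR. None of these counts held a gene that was higher. Their summed levels were 2298 to 2564, 901 to 2184 and 987 to 1510 CPM. Of 10 neutrophil genes 0 passed on either day, also at an unadjusted p under 0.05 in edgeR or by DESeq2 or limma-voom, with 977 to 1754, 328 to 2921 and 621 to 1309 CPM. Of 8 mesothelial genes 0 passed at day 3 by the same measures and 1 rose at day 9, with 52.8 to 153, 25.3 to 87.3 and 57.7 to 500 CPM. No gene of these 5 lists was at 0 in any library. Of 12 skeletal muscle genes edgeR called 1 lower at day 3, DESeq2 3 and limma-voom 1, and at day 9 they called 0, 2 and 0, with 1 lower at an unadjusted p under 0.05 in edgeR. Of 10 alveolar type 2 genes edgeR called 0 at day 3, as did DESeq2 and limma-voom, with 1 lower at an unadjusted p under 0.05, and each tool called 1 lower at day 9. Of 8 platelet genes 1, Pf4, rose at day 3 and at day 9, with summed levels of 88.4 to 112, 76.8 to 204 and 68.2 to 116 CPM. Of the 7 hepatocyte genes that could be tested, edgeR, DESeq2 and limma-voom called 0 in any comparison, and at an unadjusted p under 0.05 edgeR had 1 higher at day 3 and 1 lower between days 9 and 3. The part of these cell types in the changes of the members was not tested.

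For each tested member, the 3 genes whose log2 CPM followed it most closely over the 9 libraries were taken from 11710 genes with a mean of at least 5 CPM. The values are a description of these 9 libraries, in each of which both genes of a pair share the library's depth and tissue make-up. For Plau they were Ehmt2 (Pearson r = 0.993), Tmed10 (0.989) and Ctsb (0.989). Ehmt2, a histone methyltransferase, ran only from 81.4 to 109.5 CPM, whereas Ctsb, the lysosomal protease cathepsin B, went from a mean of 485 CPM at day 0 to 1607 and 2876 CPM. For Plaur they were Rap1b (0.978), Dhx15 (0.978) and Safb2 (0.974), and for Plat Glt8d1 (0.984), Lix1l (0.980) and Fam102b (0.980). Those of Serpinb2 included the cytokine gene Il33 (0.985) and the arginase gene Arg1 (0.975). Arg1 stood at 7.39, 156 and 25.3 CPM in day 9 replicates 1, 3 and 4. Its likeness to Serpinb2 over these libraries was the ground for choosing it, so a shared order adds no evidence. Serpine2 was followed by Bglap (0.984) and Bglap2 (0.978), near-identical genes of the bone protein osteocalcin between which reads may be split, and by Tnn (0.978), which encodes the matrix protein tenascin N. Bglap was at 0.0761 CPM in day 3 replicate 4, the library with the lowest Serpine2, and at 42.1 to 93.3 CPM on days 0 and 9.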

How the data were processed

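Poly(A) RNA of 9 libraries was sequenced, per the labels' protocols. The authors deposited 1 table of whole-number read counts per gene, which was used for every test here. Its columns named TPM and RPKM, as deposited by the authors, hold the same values within 1e-09 and are counts divided by the library total, not scaled by gene length. A further deposited signal, named CPM, is scaled to an effective library size. The table also holds the authors' log2 fold changes and FDR-adjusted p-values. The table as used here has 3 empty lines. Sources used here do not give the aligner, the counting program or the library strand. GRCm38 and mm10 are named in the submitters' processing notes, but 551 of 25597 identifiers had the same position in GENCODE M21. No base positions printed here therefore come from the table. The members' chromosomes and the overlaps and strands of overlapping genes were read from it.

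Counts were filtered with filterByExpr by day, which left 14794 genes, scaled by TMM and fitted with edgeR 4.0.16 (quasi-likelihood F test, 9 libraries, 1 mean per day, 6 residual degrees of freedom, two-sided) in R 4.3.3. Adjusted p means Benjamini-Hochberg over all tested genes, with a threshold of 0.05. The standard error is the log2 fold change divided by the root of F. Alternatives used limma 3.58.1 and DESeq2 1.42.0, size factors, no filter, 6 libraries, a replicate block and leaving out each library. Log2 CPM for likeness used a prior count of 2, and figures matplotlib 3.10.9 in Python 3.11.15. The floor is 3 counts over a group.

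The members and lists were chosen with earlier results of these data known. Named are all members, the listed genes that passed, 7 blood-borne genes whatever their result (F12, Klkb1, Hrg, Cpb2, Fga, Fgb, Fgg) and the 3 genes most like each tested member, except for a few genes that are not reported here.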

Additional observations from a re-analysis of the deposited data

How the results depend on the processing

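The rises of Plau, Plat and Plaur from day 0 to day 9 passed in all 15 alternatives run. At day 3 the 3 member calls became 0 with the replicate block (Plau 0.152, Plaur 0.0561, Serpinb2 0.0727 adjusted p), 1 lower member was called by DESeq2, and without 1 library 1 to 3 were higher, with the 1 on leaving out day 0 replicate 1. Whether the replicate numbers pair the samples cannot be told from 3 libraries per day. Deviations of same-numbered libraries of days 3 and 9 correlated by 0.472, 0.319 and -0.248 across genes. Same-numbered pairs with day 0 gave -0.0695 and -0.0884 for day 3, and -0.15 and -0.0247 for day 9. The highest value of all pairs, 0.516, was that of day 3 replicate 3 with day 9 replicate 4. Not every library correlated best with its own number. With that block 2 members in place of 4 differed between any days, 0 in place of 1 were higher between days 9 and 3 (Plat 0.0611), and 0 too in the fit of 6 libraries; without 1 library that count was 0 to 1, with the 0 on leaving out day 9 replicate 4. The other system genes called higher became 1 in place of 8 at day 3 and 6 in place of 11 at day 9 with the block, and between days 9 and 3 they were 0 with the block or 6 libraries and 5 with DESeq2, against 2. Without 1 library they were 0 to 1 lower in each comparison with day 0 and 1 to 4 higher between days 9 and 3, and the fit of 6 libraries called 2 lower at day 9.

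Over all genes, 1904 were higher and 486 lower at day 3, 2246 and 820 at day 9, and 768 and 542 between days 9 and 3. DESeq2 called 2136 higher and 1226 lower at day 3, 2502 and 1567 at day 9, and 1366 and 1037 between days 9 and 3. Fits of 6 libraries called 747 and 172 at day 3, 3310 and 3006 at day 9, and 109 and 61 between days 9 and 3. The block gave 186 and 28, 777 and 123, and 82 and 45. Without 1 library the ranges were 691 to 2559 and 133 to 2612 at day 3, 1384 to 2800 and 278 to 2225 at day 9, and 274 to 2456 and 87 to 1650 between days 9 and 3.

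Signs turned for Plat at day 3 (-0.094 to 0.288 without 1 library, negative without day 3 replicate 3), Serpine2 at day 9 (0.222 with the block; -0.175 to 0.029 without 1 library, positive without day 0 replicate 1 or day 9 replicate 4) and Plaur between days 9 and 3 (-0.209 to 0.204, positive without day 3 replicate 3 or day 9 replicate 1), all as log2 fold changes that had not passed. The cause of these shifts was not tested. Depth limits Plg and Serpinf2, which had 10 and 23 reads in all.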
